A study of Homo sapiens with 8 samples.

Results

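The integrin and laminin genes were taken as all genes whose symbols name an integrin alpha subunit, an integrin beta subunit or a laminin alpha, beta or gamma chain and that had at least 1 probe set annotated to that gene alone. They were 35 of the 18132 genes with a probe set of their own, namely 18 alpha subunits, 7 beta subunits and 10 laminin chains. The probe set with the highest mean of a gene stood for it, and the gene's further probe sets were read beside it, which made 101 probe sets together. ITGB6 had only 2 probe sets, both shared with LINC02478, and was not counted. Transcripts were measured in total RNA of DU145, a line derived from a brain metastasis of human prostate carcinoma, on 4 Affymetrix arrays of Aldrin-exposed and 4 of Non-exposed cells, and values are log2 intensities. Exposed cultures received 1 µM of Aldrin, an organochlorine insecticide, in DMSO for 50 days with renewed treatment after every passage, and the sources do not say whether the Non-exposed cells received the solvent. The comparison asks which transcripts differ after this long exposure. The sources do not say whether the 4 replicates of a condition were separate cultures, so the p-values reflect no more than how these samples scatter, which may be technical, and all 8 came from 1 cell line.

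Integrins are receptors of the cell surface, each made of an alpha and a beta chain, which bind the extracellular matrix or other cells and are linked to actin or keratin filaments inside the cell. Laminins are trimers of an alpha, a beta and a gamma chain that build the basement membrane under epithelia. In the prostate, basal cells hold on to laminin through integrins, among them the product of ITGA6 with that of ITGB4 in hemidesmosomes and that of ITGA3 with that of ITGB1.

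None of the 35 genes passed the threshold (adjusted p under 0.05, limma with Benjamini-Hochberg adjustment over all 49293 probe sets), and the smallest adjusted p among them was 0.999996. Over all probe sets 1 was past it, or 0.00203%, in PXDN, which encodes a peroxidase of the matrix. When the probe set of highest mean stood for each gene, none of the 18132 genes passed, and the smallest adjusted p was 0.295 (limma). At an unadjusted p under 0.05 there was 1 integrin or laminin gene, ITGB8, beside 501 or 2.76% of all genes. The highest and lowest arrays of the conditions overlapped in all 35, while 318 or 1.75% of all genes had no overlap. The mean was lower in exposed cells for 18 members and higher for 17, and over all genes it was lower in 54.2%. The median log2 fold change, Aldrin-exposed minus Non-exposed, was -0.01 for the members and -0.01 for all genes, and the median size without regard to sign was 0.07 in both. Differences ran from -0.21 for ITGB8 to 0.20 for LAMC1. Each gene's 95% interval, taken alone, lay between -0.67, the lower bound of LAMB2, and 0.61, the upper bound of LAMC1. A difference of 1 on the log2 scale, a doubling of intensity, was therefore outside all 35 intervals. Whether members of low intensity stood above background was not tested, so this does not bound the change in their transcripts.

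**Figure D1:**
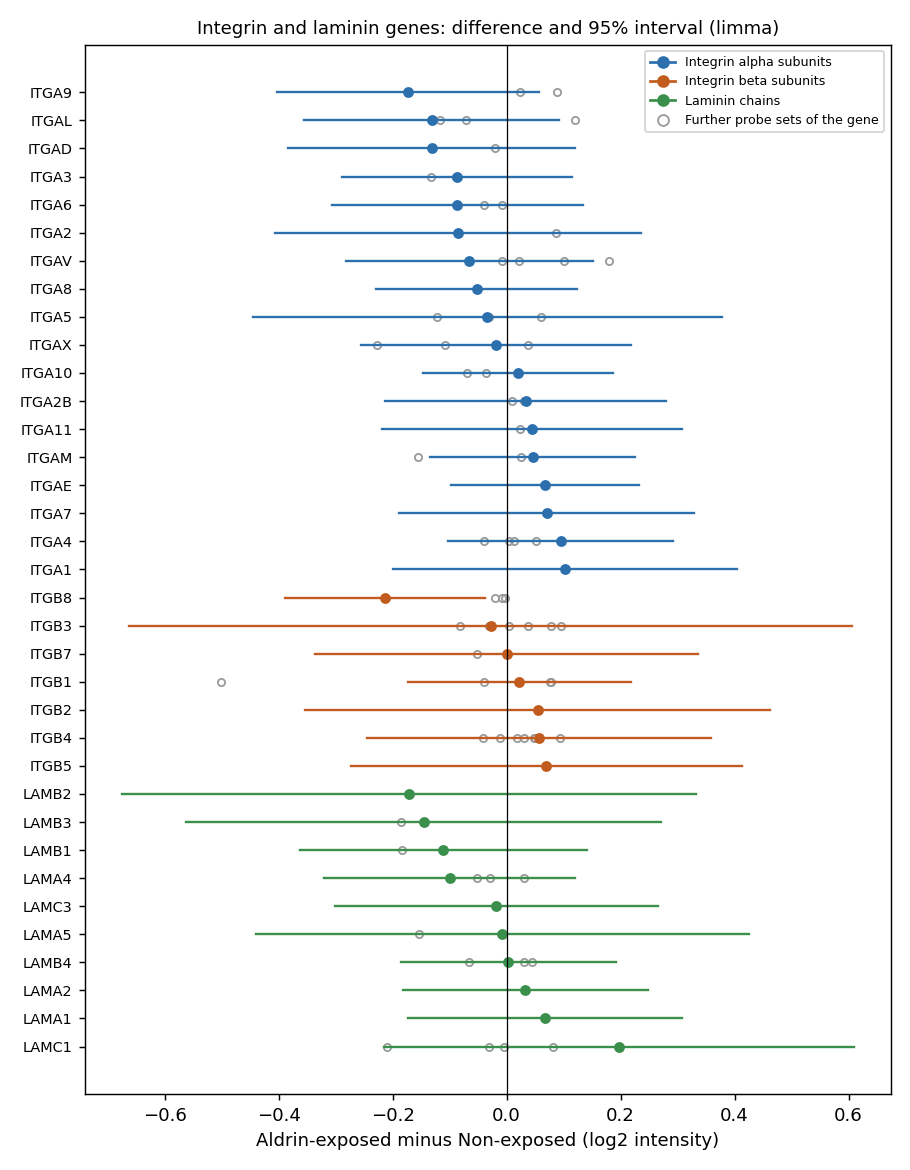
Log2 fold change (x axis, Aldrin-exposed minus Non-exposed, log2 intensity) of each integrin and laminin gene (y axis) at its representative probe set, with the 95% interval from limma as a line and further probe sets of the gene as open circles. The interval of ITGB8 ends at -0.04, those of the other 34 genes cross 0, and the open circle farthest left is an ITGB1 probe set at -0.50.

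The 8 arrays differed in a way that the conditions do not explain, and this touches every value below. After the mean of each condition was removed, 1 axis held 58.3% of the remaining variance over all probe sets, with Aldrin-exposed replicate 3 and Non-exposed replicate 4 at its end, and these arrays deviated from their conditions together (r = 0.783 over all probe sets, given as a description). The GC-dependent background, the mean of background controls rich in G or C minus that of those poor in them, was lowest on Aldrin-exposed replicates 2 and 3, at 5.59 and 5.65, and lay between 5.76 and 6.37 on the other 6 arrays. Without both deviating arrays the count past the threshold was still 0 of 35 members, and 1 member, ITGB8, was without overlap. With fewer arrays a lack of overlap is reached more easily, and the share of all genes without overlap in this setting is not given here.

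Among beta subunits 2 of 7 had the lower mean in exposed cells and 5 the higher, with a median log2 fold change of 0.02. In the sentences that follow, the 4 values of each condition are in the order of replicates 1 to 4. ITGB8, whose product joins that of ITGAV in a receptor that frees TGF-beta from its latent complex, read 5.24, 5.15, 5.06 and 5.17 after exposure and 5.39, 5.41, 5.45 and 5.24 in Non-exposed cells. The exposed values were the lower ones except that exposed replicate 1 and Non-exposed replicate 4 met at 5.24. The means were 5.16 ± 0.07 and 5.37 ± 0.09 (SD, n = 4), a log2 fold change of -0.21 (95% interval -0.39 to -0.04, unadjusted p = 0.0228 and adjusted p = 1.00 from limma, exact permutation p = 0.0571, two-sided). The exact test over the 70 splits of 8 arrays cannot go below 0.0286. Without Aldrin-exposed replicate 3 or Non-exposed replicate 1, 2 or 3 the unadjusted p from limma lay between 0.0519 and 0.0623. The 3 further ITGB8 probe sets differed by -0.01, 0.00 and -0.02, and the mean of all 4 differed by -0.06 (unadjusted p = 0.304, adjusted p = 1.00 from limma). Background controls, named by the number of G or C bases in their probes, had means of 4.88 for 14 and 5.41 for 15, on either side of the 5.26 that this ITGB8 probe set had over the 8 arrays. The base content of its own probes is not given in the sources used here, and whether ITGB8 stood above background was not tested.

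ITGB1, the most widely shared beta subunit, which joins many alpha subunits in receptors for laminin, collagen and fibronectin, read 13.68, 13.91, 13.76 and 13.62 after exposure and 13.69, 13.69, 13.65 and 13.84 in Non-exposed cells. These values were mixed, with a log2 fold change of 0.02 (95% interval -0.17 to 0.22). Of its further probe sets, 3 differed by -0.04, 0.08 and 0.08. The remaining probe set, 11742048_at, read 6.31, 6.34, 6.17 and 6.24 after exposure and 6.45, 6.54, 7.10 and 6.97 in Non-exposed cells. All 4 exposed arrays were below all 4 Non-exposed arrays, and Non-exposed replicates 3 and 4 stood highest. Its log2 fold change was -0.50 (95% interval -0.83 to -0.17, unadjusted p = 0.00732, adjusted p = 1.00 from limma), and the exact permutation p was 0.0286, the smallest that 4 against 4 arrays allow. It was the only one of 101 member probe sets without overlap, beside 1.99% of all probe sets, and 3 of the 101 were at an unadjusted p under 0.05, beside 3.07%. It was picked with its values in view, and the part of the transcript that it reads is not given in the sources used here. Its mean over the 8 arrays was 6.51, against 11.61 to 13.73 for the other ITGB1 probe sets. Background controls with 16 and 17 G or C had means of 6.13 and 6.60. Whether this probe set stood above background was not tested. Changing the model or leaving out arrays cannot undo a lack of overlap. In 13 such further settings the log2 fold change of this probe set ran from -0.61 to -0.39. Its unadjusted p ran from 0.00206 to 0.0481 and no adjusted p was under 0.780.

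**Figure D2:**
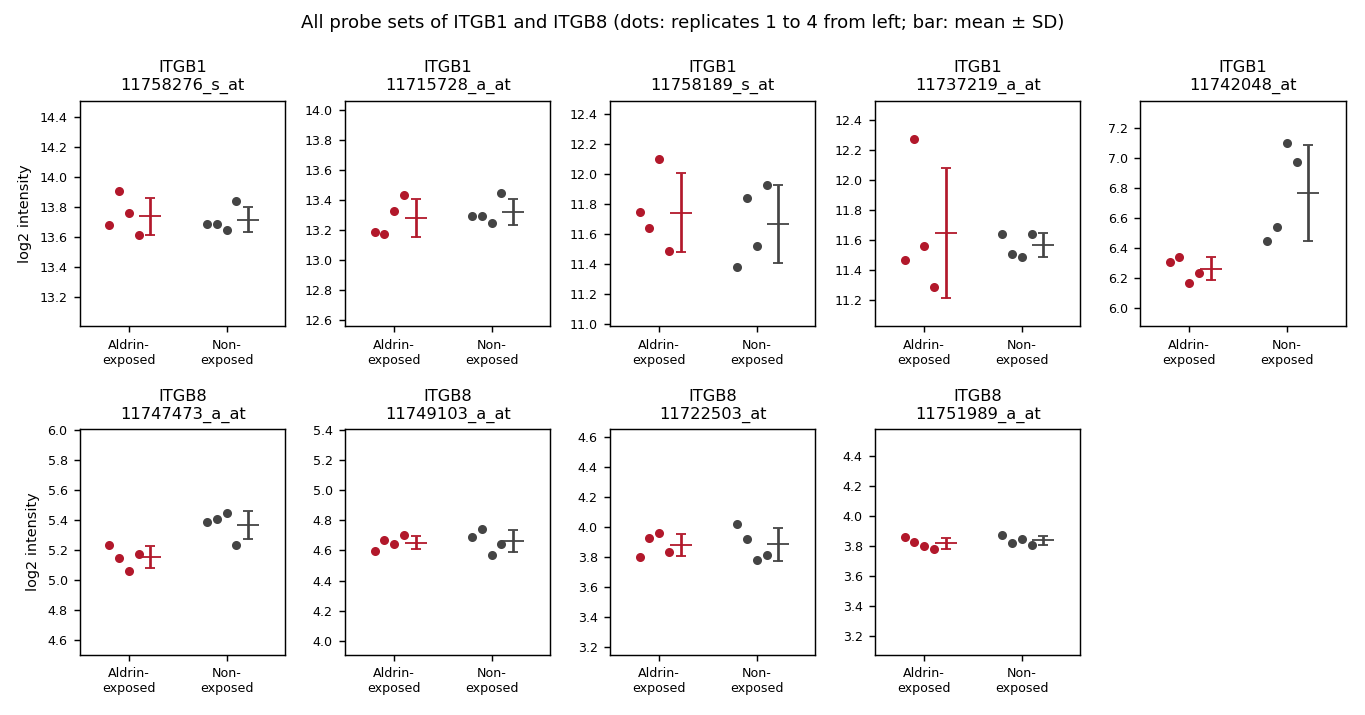
Log2 intensity (y axis) on each array for the 5 ITGB1 probe sets and the 4 ITGB8 probe sets, with Aldrin-exposed (red) and Non-exposed (grey) arrays as dots in replicate order and the mean ± SD as a bar. In ITGB1 the conditions part only in probe set 11742048_at, at 6.26 against 6.77, and in ITGB8 only probe set 11747473_a_at shows a gap between the means, at 5.16 against 5.37.

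The sequences just upstream of the start sites of these beta subunit genes are shown because ITGB8 had the smallest p of the 35 representative probe sets and ITGB1 that of all 101. ITGB8 lies on chromosome 7 (20329766 to 20415754, GRCh38.p14) and ITGB1 on chromosome 10 (32900318 to 32958230). The ITGB8 start site used lies inside this span, not at its first base. The upstream windows used held a further ITGB1 start site inside the gene, and its stretch is printed too. The lines below hold the 100 bases before each start site, on the gene's strand, with every GGGCGG (the GC box) and TATAAA (the TATA box) on either strand in capitals.
ITGB8 chr7:20330800-20330899 (+): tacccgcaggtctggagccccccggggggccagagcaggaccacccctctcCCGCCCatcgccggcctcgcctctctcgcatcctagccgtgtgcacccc
ITGB1 chr10:32958231-32958330 (-): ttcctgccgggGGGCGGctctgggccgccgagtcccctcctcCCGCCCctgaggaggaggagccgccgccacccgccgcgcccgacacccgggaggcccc
ITGB1 chr10:32935559-32935658 (-): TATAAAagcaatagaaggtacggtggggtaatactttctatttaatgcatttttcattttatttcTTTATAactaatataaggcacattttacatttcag
The ITGB8 stretch held 1 GC box in a sequence of 74% G or C, the ITGB1 stretch at the far start held 2 in 82%, and the ITGB1 stretch at the inner start held none and 2 TATA boxes in 26%. In windows of 300 bases, 250 before and 50 after the start, GGGCGG was found on either strand in 45% of 35116 RefSeq windows and in 18 of the 31 windows of the 24 members matched, or 58.1%. TATAAA was found in 11.5% of all windows and in 2 of the 31, of ITGA6 and ITGB1. TGANTCA, the AP-1 site, was found in 7.71% of all windows and in 2 of the 31, of ITGA5 and LAMB3. Such a match describes the letters and is no evidence of binding.

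ITGB4, the partner of ITGA6 in hemidesmosomes with a long cytoplasmic tail that binds plectin, read 11.60, 11.48, 11.81 and 11.72 after exposure and 11.28, 11.52, 11.69 and 11.88 in Non-exposed cells. The lowest and the highest value were both Non-exposed arrays, and the log2 fold change was 0.06 (95% interval -0.24 to 0.36). Its 8 probe sets differed by -0.04 to 0.09. ITGB5, which joins ITGAV in a vitronectin receptor, read 10.81, 10.24, 10.92 and 10.71 after exposure and 10.34, 10.70, 10.69 and 10.67 in Non-exposed cells. Aldrin-exposed replicates 1, 3 and 4 were above all Non-exposed arrays and replicate 2 was below them, with a log2 fold change of 0.07 (95% interval -0.27 to 0.41) and 0.21 without replicate 2 (unadjusted p = 0.0947, limma). It was -0.01 without Aldrin-exposed replicate 3 and -0.02 without Non-exposed replicate 1. ITGB2, the beta chain of leukocyte integrins, ITGB7, its counterpart in lymphocytes that home to the gut, and ITGB3, the beta chain of the platelet fibrinogen receptor, differed by 0.05, 0.00 and -0.03. ITGB3 had the widest spread of all members, with an SD within conditions of 0.48, from 8.89 to 10.01 after exposure and from 8.90 to 9.90 without it. The ITGB6 probe sets shared with LINC02478 read 5.57 and 5.61 in 1 and 4.54 and 4.52 in the other, exposed first, and cannot be given to either gene.

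Among alpha subunits 10 of 18 had the lower mean in exposed cells and 8 the higher, from -0.17 for ITGA9 to 0.10 for ITGA1, and none was at an unadjusted p under 0.05. The receptors for laminin were represented by ITGA3, ITGA6 and ITGA7. ITGA3, which joins ITGB1, read 12.50, 12.35, 12.20 and 12.45 after exposure and 12.44, 12.45, 12.58 and 12.37 in Non-exposed cells. The lowest 2 arrays were exposed ones, but the log2 fold change of -0.09 (95% interval -0.29 to 0.12) was within the spread. Exposed cells had the lower mean in each of its 3 probe sets, with log2 fold changes of -0.13 to -0.09. ITGA6 read 12.40, 12.29, 12.56 and 12.15 after exposure and 12.42, 12.54, 12.35 and 12.44 in Non-exposed cells. Both the highest and the lowest array were exposed ones, and the 3 probe sets differed by -0.09 to -0.01. No correlation was found over the 8 arrays between ITGA6 and ITGB4, whose products form 1 receptor (Pearson's r = 0.0455, exact permutation p = 0.913, Spearman's rho = 0.214, exact permutation p = 0.619). With 8 arrays and 1 probe set of each gene, this cannot show that they do not vary together. The coefficient r was 0.0432 without the 2 arrays farthest from the median of ITGA6 and 0.109 over deviations from the condition means, and this was the only pair tested. ITGA7, the laminin receptor of muscle, differed by 0.07.

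The receptors for collagen were represented by ITGA1, ITGA2, ITGA10 and ITGA11, of which 1 had the lower mean in exposed cells. ITGA2, the alpha chain of the main epithelial collagen receptor, read 8.32, 8.40, 8.72 and 8.44 after exposure and 8.41, 8.74, 8.26 and 8.82 in Non-exposed cells. The ranges were nearly the same, and its 2 probe sets differed by -0.09 and 0.09. ITGA1, ITGA10 and ITGA11 differed by 0.10, 0.02 and 0.04. ITGA1 and ITGA2 are neighbours on chromosome 5, 30142 bases apart.

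The receptors for the sequence Arg-Gly-Asp in fibronectin, vitronectin and fibrinogen were represented by ITGAV, ITGA5, ITGA8 and ITGA2B, of which 3 had the lower mean in exposed cells. ITGAV, shared by several beta subunits including those of ITGB5 and ITGB8, read 9.83, 9.92, 9.63 and 9.88 after exposure and 9.87, 9.70, 9.99 and 9.95 in Non-exposed cells. The conditions overlapped, and its 5 probe sets ran from -0.07 to 0.18, with 2 of them below 0. ITGA5, the alpha chain of the fibronectin receptor, differed by -0.03 with an SD of 0.33 after exposure and 0.27 without it. ITGA8 and ITGA2B differed by -0.05 and 0.03.

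ITGA9, whose product binds tenascin-C and osteopontin, read 6.20, 5.83, 6.03 and 6.27 after exposure and 6.22, 6.26, 6.30 and 6.25 in Non-exposed cells. Exposed replicates 2 and 3 were low, while replicates 1 and 4 lay close to or within the narrow Non-exposed range. The log2 fold change was -0.17 (95% interval -0.40 to 0.06, unadjusted p = 0.124, adjusted p = 1.00 from limma), and without Aldrin-exposed replicate 4 it was -0.24, with no overlap and an unadjusted p = 0.0466. Without Aldrin-exposed replicate 2 it was -0.09 (unadjusted p = 0.312), and with array weights also -0.09. Its other 2 probe sets differed by 0.02 and 0.09, in the opposite direction, and the mean of the 3 by -0.02. ITGA4, which binds fibronectin and VCAM1, read 5.12, 5.41, 5.17 and 5.11 after exposure and 5.09, 5.14, 5.16 and 5.03 in Non-exposed cells. Exposed replicate 2 alone stood out, the log2 fold change was 0.09 (95% interval -0.10 to 0.29), and its 5 probe sets ran from -0.04 to 0.09.

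Of the alpha subunits known from leukocytes, 3 of 5 had the lower mean in exposed cells. ITGAL, the alpha chain of the lymphocyte receptor for ICAM1, read 7.29, 6.94, 6.95 and 7.25 after exposure and 7.26, 7.21, 7.24 and 7.25 in Non-exposed cells. Again exposed replicates 2 and 3 were low and replicates 1 and 4 were level with the Non-exposed arrays, and its 4 probe sets ran from -0.13 to 0.12. ITGAD read 6.18, 6.05, 6.15 and 6.36 after exposure and 6.39, 6.16, 6.55 and 6.17 in Non-exposed cells, with a log2 fold change of -0.13 (95% interval -0.38 to 0.12). With the GC-dependent background as a covariate, the log2 fold changes of ITGA9, ITGAL and ITGAD were -0.11, -0.07 and -0.05. ITGAE, whose product with that of ITGB7 binds E-cadherin, read 12.42, 12.36, 12.34 and 12.31 after exposure and 12.33, 12.39, 12.22 and 12.22 in Non-exposed cells. It had the smallest SD within conditions of the members, 0.07, and a log2 fold change of 0.07 (95% interval -0.10 to 0.23). ITGAM and ITGAX, which lie side by side with ITGAD on chromosome 16, differed by 0.05 and -0.02. In ITGAX 1 of 4 probe sets, 11743475_a_at, was at an unadjusted p under 0.05, with 5.11 ± 0.08 against 5.33 ± 0.11 (SD, n = 4), a log2 fold change of -0.23 (unadjusted p = 0.0224, adjusted p = 1.00 from limma). Over the same 13 settings the unadjusted p ran from 0.0120 to 0.0860.

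**Figure D3:**
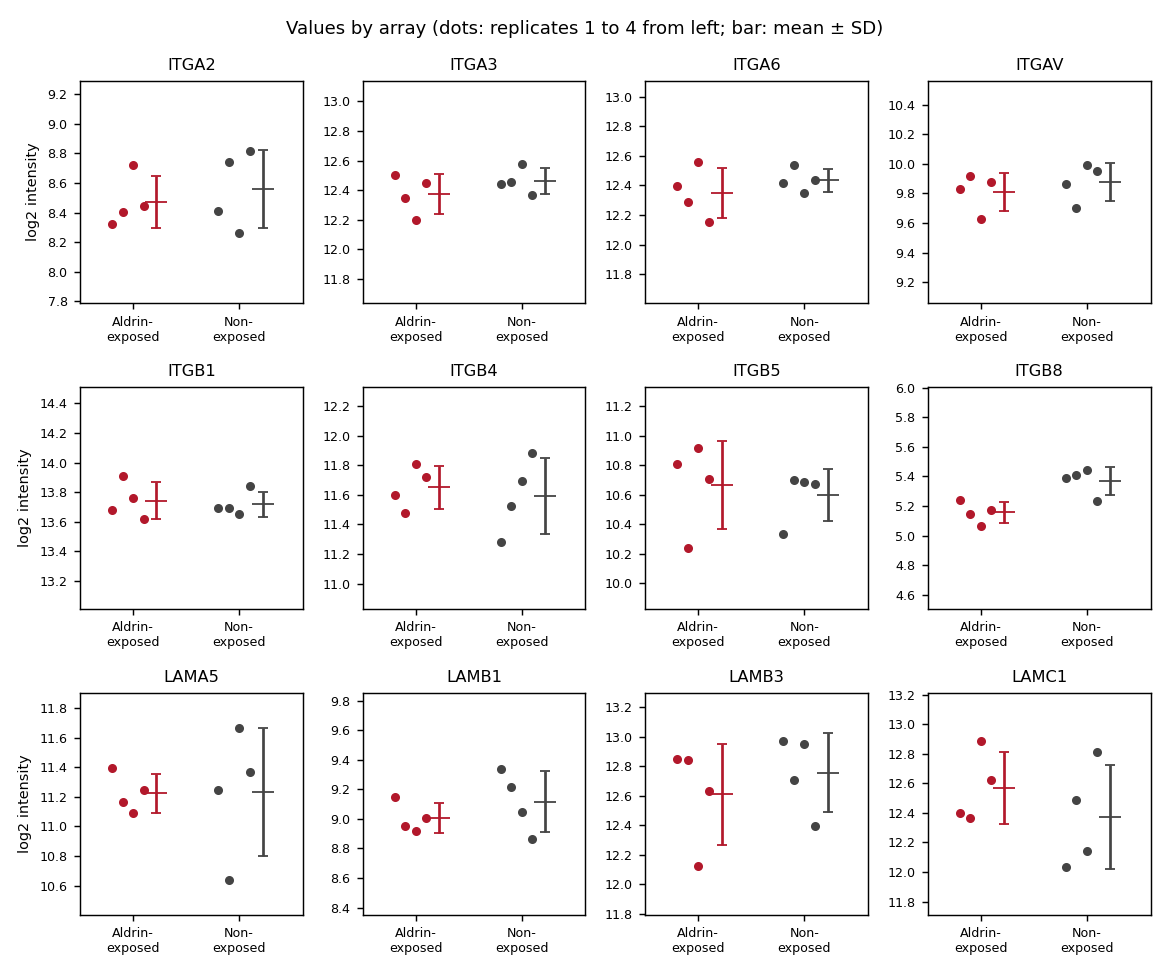
Log2 intensity (y axis) on each array for 12 integrin and laminin genes of epithelial cells at their representative probe sets, with Aldrin-exposed (red) and Non-exposed (grey) arrays as dots in replicate order and the mean ± SD as a bar. All 12 panels overlap, ITGB8 by only the 2 arrays at 5.24, and every panel spans the same height in log2 units.

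Among laminin chains 6 of 10 had the lower mean in exposed cells and 4 the higher, with none at an unadjusted p under 0.05. Of the alpha chains, which carry the main integrin-binding domains, LAMA5 of adult epithelial basement membranes read 11.39, 11.16, 11.09 and 11.25 after exposure and 11.25, 10.64, 11.67 and 11.37 in Non-exposed cells. The lowest and the highest array were both Non-exposed, and the log2 fold change was -0.01 (95% interval -0.44 to 0.43). LAMA4, a chain of vessel walls, read 7.46, 7.15, 7.24 and 7.53 after exposure and 7.49, 7.38, 7.48 and 7.43 in Non-exposed cells. Exposed replicates 2 and 3 were low here too, and the log2 fold change of -0.10 (95% interval -0.32 to 0.12) was -0.03 with the GC-dependent background as a covariate. LAMA1, a chain of embryonic basement membranes, and LAMA2, the chain of muscle, differed by 0.07 and 0.03.

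Of the beta chains, LAMB3 belongs to the laminin that anchors epithelia. It read 12.85, 12.84, 12.12 and 12.63 after exposure and 12.97, 12.71, 12.95 and 12.40 in Non-exposed cells. The lowest array of each condition was one of the pair that deviated together, Aldrin-exposed replicate 3 and Non-exposed replicate 4. The log2 fold change was -0.15 (95% interval -0.56 to 0.27), its other probe set had -0.18, and without Aldrin-exposed replicate 3 the value was 0.02. LAMB1, the beta chain of many basement membranes, read 9.15, 8.95, 8.92 and 9.01 after exposure and 9.34, 9.22, 9.05 and 8.86 in Non-exposed cells. Non-exposed replicates 1 and 2 were above all exposed arrays and replicate 4 was below them, with a log2 fold change of -0.11 (95% interval -0.36 to 0.14). LAMB2, the beta chain of the kidney filter and the neuromuscular junction, differed by -0.17 with a standard error of 0.22, and its exposed replicate 3 was lowest of all at 10.15. LAMB4, 8500 bases from LAMB1 on chromosome 7, differed by 0.00.

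Of the gamma chains, LAMC1, which most laminins contain, read 12.40, 12.36, 12.88 and 12.62 after exposure and 12.04, 12.49, 12.14 and 12.81 in Non-exposed cells. The highest array of each condition was again Aldrin-exposed replicate 3 or Non-exposed replicate 4, this time above and not below the rest. The log2 fold change was 0.20 (95% interval -0.22 to 0.61, unadjusted p = 0.310 from limma). It was 0.34 without Non-exposed replicate 4, 0.09 without Aldrin-exposed replicate 3 or Non-exposed replicate 1, and 0.12 without Non-exposed replicate 3. The 5 LAMC1 probe sets ran from -0.21 to 0.20, with 3 of them below 0. LAMC3 differed by -0.02.

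Variation between arrays of 1 condition was about as large for these genes as for all genes, with a median SD of 0.158 and 0.157. In Aldrin-exposed replicate 3 and Non-exposed replicate 4 together, 21 of the 35 members were below the mean of their condition in both arrays, 9 were above it in both and 5 were split. Over all genes the shares were 48.6%, 27.9% and 23.4%. The 9 above were ITGB1, ITGB4, ITGB5, ITGA1, ITGA2, ITGA5, ITGA6, LAMA2 and LAMC1. Among the 21 below, the deviations were largest for LAMB2, with -0.60 and -0.32, LAMB3, with -0.49 and -0.36, and ITGB3, with -0.47 and -0.49. LAMC1 stood at the other end with 0.32 and 0.44, on the opposite side from LAMB2 and LAMB3, while the other gamma chain, LAMC3, was below with -0.14 and -0.25. Of these 2 arrays 1 is exposed and 1 is not.

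**Figure D4:**
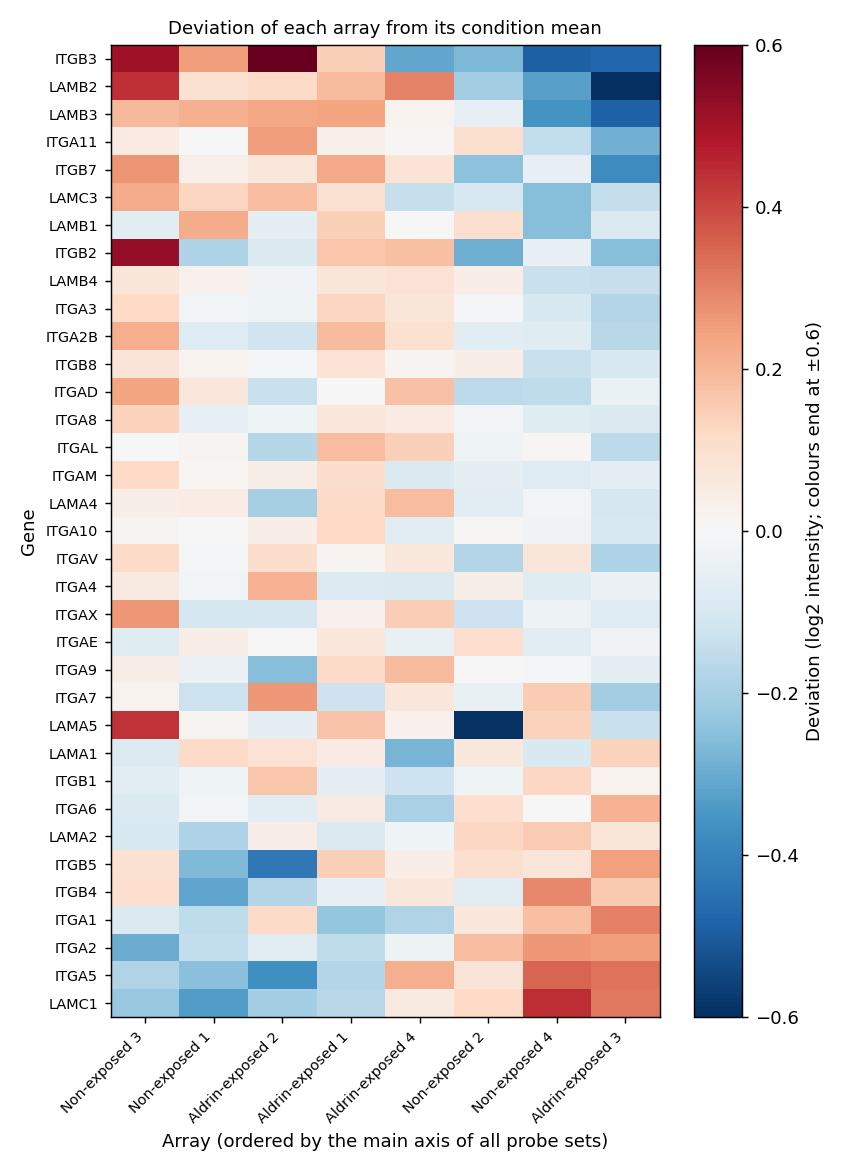
Deviation of each array (x axis, ordered by the main axis of all probe sets) from the mean of its condition, in log2 intensity by colour, for the 35 genes (y axis). Non-exposed replicate 4 and Aldrin-exposed replicate 3 at the right are blue for 21 genes at the same time, such as LAMB3 at -0.36 and -0.49, and red for 9, such as LAMC1 at 0.44 and 0.32.

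Proteins of the integrin adhesion complex, among them linkers to actin, were measured by 27 of 30 listed genes. Of these, 12 had the lower and 15 the higher mean in exposed cells. None passed the threshold, and 1, TLN2, was at an unadjusted p under 0.05, beside 2.76% of all genes. TLN2, a talin, which ties integrin tails to actin, read 6.92, 7.30, 7.22 and 6.81 after exposure and 6.70, 6.68, 6.76 and 6.83 in Non-exposed cells. Exposed replicates 1 to 3 were above all Non-exposed arrays, and replicate 4 was within their range. The log2 fold change was 0.32 (95% interval 0.06 to 0.58, unadjusted p = 0.0227, adjusted p = 1.00 from limma) and 0.29 in its other probe set, and the p was over 0.05 when any 1 of Aldrin-exposed replicates 2 and 3 and Non-exposed replicates 1 and 2 was left out. The unadjusted p was 0.0578 in limma without both deviating arrays. PARVA, parvin alpha, a partner of integrin-linked kinase, read 9.80 ± 0.08 and 9.63 ± 0.11 (SD, n = 4). Its 4 probe sets were higher in exposed cells by 0.14 to 0.29. Of these 1 was without overlap, beside 1.99% of all probe sets. FERMT3, the kindlin of blood cells, differed by -0.20 with a standard error of 0.13.

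Partners of laminin receptors were measured by 4 of 7 listed genes, all of them lower on average after exposure and none at an unadjusted p under 0.05. Over all genes the mean was lower in 54.2%. BCAM, a receptor for the LAMA5 chain, DST, which encodes the hemidesmosome plakin, and CD151, the tetraspanin bound to laminin receptors, differed by -0.13, -0.16 and -0.06. Membrane partners of integrins were measured by 8 of 8 genes, 4 lower and 4 higher, none at an unadjusted p under 0.05. SLC3A2, BSG and CD82 had the smallest p, with 0.09, -0.11 and -0.07.

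Other matrix ligands of integrins and partners of laminin were measured by 15 of 15 listed genes, 10 with the lower and 5 with the higher mean, and none passed the threshold. TNC, which encodes tenascin-C, a ligand of the ITGA9 receptor, was the only one at an unadjusted p under 0.05, beside 2.76% of all genes. It read 10.71, 10.71, 10.66 and 10.69 after exposure and 11.45, 11.25, 11.22 and 10.87 in Non-exposed cells. All exposed arrays lay below all Non-exposed arrays and within a narrow band. The means were 10.69 ± 0.02 and 11.20 ± 0.24 (SD, n = 4), a log2 fold change of -0.50 (95% interval -0.76 to -0.24, unadjusted p = 0.00167, adjusted p = 1.00 from limma, exact permutation p = 0.0286). The log2 fold changes of the 4 TNC probe sets ran from -0.53 to -0.36, and 2 of the 4 were without overlap, beside 1.99% of all probe sets. In the same 13 further settings, which could not undo a lack of overlap, the representative probe set ran from -0.61 to -0.42, with no adjusted p under 0.480. THBS1, which encodes thrombospondin, differed by 0.25 (unadjusted p = 0.0745, limma), with all 5 probe sets higher in exposed cells by 0.14 to 0.45. CCN2, a matricellular ligand, differed by 0.34 with a standard error of 0.23.

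The cell type labels were read against marker genes, with levels as log2 intensity. Each of the 5 epithelial markers was lower on average after exposure, beside 54.2% of all genes. Of the 5, 1 was at an unadjusted p under 0.05, beside 2.76% of all genes. CDH1, the gene of E-cadherin, read 9.30 ± 0.19 and 9.76 ± 0.41 (SD, n = 4), a log2 fold change of -0.46 with overlap (unadjusted p = 0.0386, adjusted p = 1.00 from limma, exact permutation p = 0.143). Its other probe set had -0.67, without overlap (unadjusted p = 0.00427, adjusted p = 1.00 from limma, exact permutation p = 0.0286). Of all probe sets 1.99% had no overlap. EPCAM and KRT18 differed by -0.25 and -0.13. Of markers of prostate luminal cells 3 of 5 were measured, TMPRSS2, KLK2 and KLK3, at 6.25, 6.28 and 5.59 over the 8 arrays. Background controls with 15 to 17 G or C had means of 5.41 to 6.60. Control means ran from 3.59 with 3 G or C to 11.42 with 25, so such a match places no gene at background. Markers of blood cells (5 of 6), of endothelium (4 of 4) and of fibroblasts (5 of 5) had none at an unadjusted p under 0.05. Of the blood cell markers, the monocyte gene CD14, the T cell gene CD3E and the red cell globin HBB differed by 0.14, -0.13 and 0.07. Of the endothelial markers, CDH5, VWF and PECAM1 differed by -0.19, -0.05 and 0.04, and of the fibroblast markers, COL1A1, DCN and PDGFRA by -0.18, 0.08 and -0.02. The leukocyte gene PTPRC read 4.76 and CD3E 5.60, near the background controls with 14 and 15 G or C. In the same cells ITGB2 read 9.77 and ITGAL 7.17 over the 8 arrays, and the further ITGAL probe sets read from 4.52 to 5.44. Background controls had means of 9.77 with 22 G or C, and of 6.60 and 7.42 with 17 and 18. The base content of the probes is not given in the sources used here. Whether any of these genes stood above background was not tested.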

How the data were processed

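Total RNA of DU145 cells was labelled as biotinylated cRNA and hybridised to 8 one-color Affymetrix arrays. From these the authors made the deposited log2 intensities of probe sets by RMA (background correction, quantile normalization and summary of probes). Its version and the chip definition are not given in the sources used here. Quantile normalization removes shifts common to a whole array before any comparison. The paper names the HG-U219 array plate, whereas gene names came from the annotation of the PrimeView array, which matched the probe set names. The table holds 49395 probe sets, 102 of them controls that were set aside, and 44988 of the rest have a single gene, 1832 several and 2473 none. No value column was unused (0).

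Conditions were compared by limma 3.58.1 (R 4.3.3), a linear model with eBayes moderation, two-sided, adjusted by Benjamini-Hochberg over 49293 probe sets at a threshold of 0.05, with exact permutation tests over the 8 arrays for single values. The number of arrays limits the precision. Simulated data with known changes were used to test the fit. The members and gene lists were chosen with earlier results of these data known, and so no p was adjusted over them alone. Values in every array are given for the 10 members of smallest p and for subunits that assemble in epithelial cells, and for the 3 genes of smallest p of each other list means or differences are given. The lists were proteins of the integrin adhesion complex, partners of laminin receptors, membrane partners, matrix ligands and markers of 5 kinds of cell.

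Alternatives covered a t-test with unequal variances, the variance model, array weights, the replicate block, median centring, quantile normalization repeated, dropping of probe sets under the 40th percentile of the mean, each array left out, and the choice of probe set. A covariate for GC-dependent background, the removal of both deviating arrays and the settings run on single probe sets were chosen after seeing the data. Gene positions and upstream sequences are from RefSeq (GRCh38.p14), with all 35 symbols matched and 0 changed, and 24 members had an upstream window.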

Additional observations from a re-analysis of the deposited data

Results flagged for a closer look

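Among 70 groups of 4 arrays, each of the 35 members in each condition, 2 held an array that stood apart from the other 3 by Dixon's criterion at the 95% level. Chance gives about 1 in 20 such groups. In ITGA2B, the alpha chain of the platelet fibrinogen receptor, Non-exposed replicate 3 read 8.79 while the other Non-exposed arrays lay between 8.49 and 8.50. In ITGB5 Non-exposed replicate 1 read 10.34 while the others lay between 10.67 and 10.70. No explanation of these values was tested.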

How the results depend on the processing

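In 19 alternative settings no integrin or laminin gene passed the threshold, and the lowest adjusted p of the 18 members with values in every array was 0.823. The count at an unadjusted p under 0.05, 1 as reported, was 0 with the replicate block, 0 without dim probe sets (22 of the 35 members were kept) and 0 with the mean of all probe sets of a gene, and it ran from 0 to 2 when arrays were left out in turn. It was 0 without Aldrin-exposed replicate 3 or Non-exposed replicate 1, 2 or 3, and 2 without Aldrin-exposed replicate 4, where ITGA9 joined ITGB8. The count of members with the lower mean in exposed cells, 18 as reported, ran from 13 to 22 when arrays were left out in turn. Over the settings ITGB8 ran from -0.26 to -0.06 with an unadjusted p from 0.0116 to 0.304. The count without overlap, 0 as reported, ran from 0 to 2 when arrays were left out in turn, and it was 1 with both deviating arrays left out. Single arrays made this count 1 without Aldrin-exposed replicate 1 (ITGB8), Aldrin-exposed replicate 2 (ITGB5) or Non-exposed replicate 4 (ITGB8), and 2 without Aldrin-exposed replicate 4 (ITGA9 and LAMA1). The count of all probe sets past the threshold, 1 as reported, was 0 with the t-test, the replicate block, dim probe sets removed, the GC-dependent background as a covariate and both arrays left out, and it ran from 0 to 1 when arrays were left out in turn, with 0 without any of Aldrin-exposed replicates 1 to 4 and Non-exposed replicates 1 and 3. The count of member probe sets without overlap, 1 of 101, was 5 without Aldrin-exposed replicate 4, Non-exposed replicate 4 or both deviating arrays. Fewer arrays part more easily, and no share over all genes stands beside these counts without overlap, so they are no sign of a clearer difference. The count of member probe sets at an unadjusted p under 0.05, 3 as reported, was 1 with the replicate block or without Aldrin-exposed replicate 3 or Non-exposed replicate 1 or 3, and 5 without Aldrin-exposed replicate 4. Under the t-test with unequal variances TLN2 had an unadjusted p of 0.0691. Removing dim probe sets tests fewer features. The cause of the other changes was not tested. Same-numbered arrays had correlations of deviations of 0.314, -0.344, -0.719 and -0.0790, and no exposed array correlated best with the Non-exposed array of its number, so the numbers were not taken as pairs. The replicate block changed no other call.

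The sign turned in 23 of 337 gene values, all for members whose interval spans 0, and 10 of the 18 genes kept theirs throughout. With array weights ITGAV was 0.00179, ITGB1 -0.0137 and LAMA5 0.232. With the GC-dependent background as a covariate ITGB1 was -0.0251 and LAMA5 0.129, and with both arrays left out ITGAV was 0.0204 and LAMA5 0.0836. With the mean of all probe sets ITGA2 was 0.000804, ITGAV 0.0458 and ITGB1 -0.0728. With probe sets without s or x in their names ITGB1 was -0.0394 and LAMC1 -0.0314. With arrays left out in turn, ITGA2 ran from -0.185 to 0.000681, ITGB1 from -0.0332 to 0.0636, ITGB4 from -0.0487 to 0.152, ITGB5 from -0.0178 to 0.212, LAMA5 from -0.204 to 0.138 and LAMB3 from -0.265 to 0.0166. With 4 arrays a condition, differences within about the spread of replicates were not detectable. A larger one, TNC at -0.50 without overlap, did not pass the adjusted threshold either. Dim probe sets such as those of ITGB8 could not be set against a detection limit.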
